A study of Mus musculus with 16 samples.

Results

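The *Hox* genes of the lumbar spinal cord were read from every probe of the arrays that is not a control and whose gene name is *Hox*, a cluster letter from a to d and a paralogue number. The rule found 38 genes, measured by 49 probes in 58 spots, among 27962 gene names and 41174 probes. Of these probes, 44 were matched by transcript accession to the RefSeq gene table, and all 44 carried the same symbol there.

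The samples were lumbar spinal cords of male mice on the B6SJL background, either SOD1G93A, which carry many copies of a mutant human *SOD1* transgene of familial amyotrophic lateral sclerosis under its own promoter, or wild-type non-transgenic (NonTg) animals of the same age. Each genotype was measured at 40 and 80 days, ages before symptoms in this model, with 4 arrays per group and 16 in all. In every array the cord RNA carried the dye Cy3, and a pool of RNA from neonatal heart, liver and kidney of both genotypes, on the same background, carried Cy5. Dyes were never swapped. The study's methods give more animals per group, and report that arrays of insufficient quality were removed, which left 4 per group. Each group had its own position on the slides, so group and position cannot be told apart.

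*Hox* genes encode homeodomain transcription factors that give positions along the head-to-tail axis their identity. They lie in 4 clusters, A to D, and paralogues of the same number occupy the same place in each cluster. Low numbers are used from the hindbrain downward, and higher numbers begin further toward the tail. In the embryonic cord, *Hoxc6* marks the forelimb level, *Hoxc9* the thoracic level and the paralogues of group 10 the lumbar level, where they set the columns and pools of motor neurons. Paralogues of group 11 are known from the sacral cord and from the developing kidney, a tissue that the pool of this study contains.

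The measurement is a log2 ratio of the cord to the pool, in which 0 marks the typical probe of the same brightness on that array and not equal amounts of RNA. A ratio also depends on the gene's level in the pool and on any dye effect of its probe. An order of ratios is therefore not an order of amounts in the cord, and the signals of different probes cannot be compared either. A spot is called well above background by a mark of the scanner software. For a gene with several probes the brightest one was used. In whole tissue, fewer cells of a type and less RNA per cell cannot be told apart.

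Before the *Hox* values are read, the probes themselves need to be seen, because paralogues resemble each other. The stretches below are 30 bases of the 60-base probes of paralogue groups 10 and 11, and of *Hoxc9*, *Hoxa5* and *Hoxb7*. Some of the results below turn on these genes, and the probes of the others are not shown. They are taken from the array files 5′ to 3′, and capitals mark the longest run shared with a probe of another *Hox* gene.
Hoxa10: gtttatacatgTGGAACTGGtggatttttg
Hoxc10: agggggataatCAAACAGAgagggtctgta
Hoxd10: ttaacctcaccgacAGGCAGGTCAAGATtt
Hoxa11: TGAATGTATgcttcatacagggatggtgtt
Hoxd11: tatacataaacAAAGAGAAaagactccaac
Hoxc9: tcttgcgatgtGGGAGGGTTaagtgttgag
Hoxa5: aattaatgctgTTGTAGAGgtgacttgata
Hoxb7: tgttttgtaagccctcTTTGAAGCtgtctt

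*Hoxd10* shares 14 bases with *Hoxa9*, and *Hoxd11* shares 8 with *Hoxd8*, and no run above 14 bases is common to a probe of groups 10 and 11 and that of another *Hox* gene. Probes were compared only with each other and not with the transcripts. Binding of a probe to the transcript of another *Hox* gene was therefore not tested. On the NCBI35 (mm7) build used by the files, the probe of *Hoxa10* lies at chr6:52195026-52195085 and that of *Hoxa11* at chr6:52205477-52205536, both on the minus strand. Those of *Hoxd10* at chr2:74537939-74537998, *Hoxd11* at chr2:74527687-74527746 and *Hoxc10* at chr15:102957582-102957641 are on the plus strand. The files give no exon or UTR for them. A further *Hoxb2* probe runs against the strand of its cluster and was not well above background in the cord on any array.

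The cord expressed most of the cluster genes, without those of the far end. Cy3 was well above background on all 16 arrays for 21 of the 38 genes and on at least 12 arrays for 25. On between 1 and 11 arrays it was so for 7 genes, and on none for 6, which are *Hoxa13*, *Hoxb1*, *Hoxb13*, *Hoxc13*, *Hoxd3* and *Hoxd12*. Among paralogues 1 to 3, 4 of 8 genes reached 12 arrays, among 4 to 9 it was 17 of 19, and among 10 to 13 it was 4 of 11. The 4 of this last class were *Hoxa10*, *Hoxc10*, *Hoxd10* and *Hoxa11*. None of the 6 genes of groups 12 and 13 was detected on more than 2 arrays in the cord, and the pool gave at most 1 array for any of them, so they stayed at background in both channels.

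The tissue itself was checked with marker lists. Of 10 genes that define cord tissue, 9 were well above background on at least 12 arrays, with a median log2 ratio of 5.52 over the list. The 1 left, *Chat*, a motor neuron marker, was so on 0 arrays in the cord and on 10 in the pool. Of 13 motor neuron genes, a list that also holds *Chat*, 9 were so on at least 12 arrays in the cord. Of 8 homeobox and bHLH genes of forebrain and midbrain, 1 was, and 5 were on no array. Markers of neonatal heart had a median ratio of -4.41, those of liver -1.96 and those of kidney -2.14. Of 5 skeletal muscle markers, 4 were well above background in the cord on at least 12 arrays. The mean log2 ratio of these 4 ran from -3.41 to -2.55 in wild-type and from -3.22 to -0.55 in SOD1G93A mice at 40 days. At 80 days it ran from -3.21 to -1.96 and from -3.21 to -1.75. Over the arrays, 45.9% to 55.3% of probes were well above background in Cy3 and 57.1% to 69.8% in Cy5.

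Against the pool, the central paralogues stood highest. A gene was counted where either channel was well above background on at least 12 arrays, and called higher or lower in the cord where its mean log2 ratio was at least 1 in size with 1 sign on all arrays. Of 28 *Hox* genes counted, 12 were higher in the cord, 0 were lower and 16 were neither. Over all 25969 probes counted in the same way, 13.5% were higher and 11% were lower. The median ratio of the 28 genes was 0.68. It was -0.063 for the 5 genes counted among paralogues 1 to 3, of which 0 were higher. For the 18 among paralogues 4 to 9 it was 1.54, with 10 higher, and for the 5 among 10 to 13 it was 0.69, with 2 higher.

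**Figure D1:**
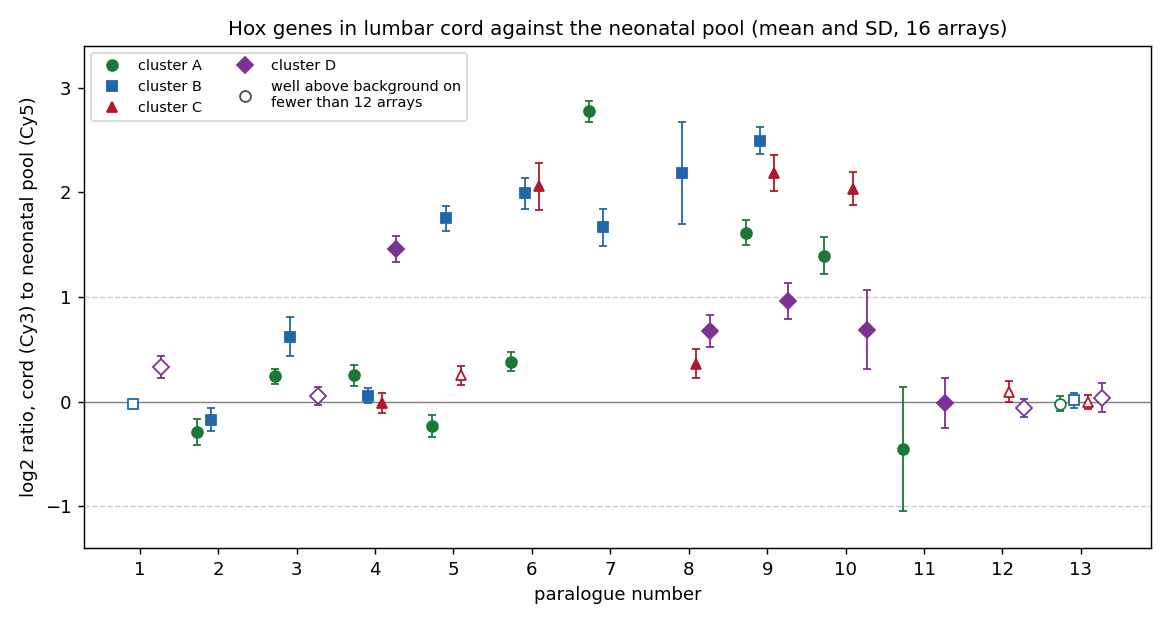
Mean log2 ratio of cord (Cy3) to neonatal pool (Cy5) for the brightest probe of the Hox genes reported, against the paralogue number, with the SD over 16 arrays. Symbols and colours give the cluster, open symbols are genes well above background in either channel on fewer than 12 arrays, and the dashed lines mark 1 and -1. The genes above 1 have paralogue numbers from 4 to 10, and those of groups 12 and 13 lie at 0 with open symbols.

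The highest ratio was that of *Hoxa7*, with 2.60 at the lowest, 2.78 at the median and 2.93 at the highest of the 16 arrays (mean 2.78 ± 0.10, SD). *Hoxb9*, which helps to set the thoracic level, followed at 2.22, 2.52 and 2.66 (mean 2.50 ± 0.13). Then came *Hoxc9*, the gene that sets the thoracic motor columns, at 1.89, 2.21 and 2.54 (mean 2.19 ± 0.17). The lowest array of *Hoxa7* lay within the range of *Hoxb9*, and *Hoxb9* overlapped *Hoxc9*, so the order of neighbours is not clear of the spread between arrays. *Hoxb8* had nearly the same mean as *Hoxc9*, 2.18, with a far wider spread, from 1.36 to 2.81 (SD 0.49). *Hoxc6*, of the forelimb level, reached 2.06 ± 0.22, *Hoxc10* 2.04 ± 0.16 and *Hoxb6* 1.99 ± 0.15 (SD, n = 16).

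At the low end of the genes detected in the cord were *Hoxa11*, *Hoxa2*, *Hoxa5* and *Hoxb2*. *Hoxa2*, a gene of the hindbrain, had -0.42, -0.32 and 0.10 as its lowest, median and highest array. *Hoxb2*, its paralogue, had -0.35, -0.14 and 0.037. *Hoxa5*, known from the cervical cord and the lung, was below 0 on all 16 arrays, from -0.41 to -0.043 with a median of -0.25. Values of this size were not called, and the 16 genes that were neither higher nor lower span ratios from -0.45 to 0.96. A dim probe has its ratio drawn toward 0 by the offset of 50 signal units. *Hoxa2* had a median Cy3 signal of 59.8 units, where the median local background of an array was between 35 and 38.

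By cluster, the median ratio was 0.25 over 10 genes of cluster A, 1.71 over 8 of B, 2.04 over 5 of C and 0.69 over 5 of D. Paralogues of 1 number were not alike in every cluster. In group 5, *Hoxb5* had 1.75 and *Hoxa5* -0.23, and in group 4, *Hoxd4* had 1.46 while *Hoxa4*, *Hoxb4* and *Hoxc4* lay between -0.013 and 0.25. In group 6, *Hoxa6* stood at 0.38, below both *Hoxb6* and *Hoxc6*. Group 9 had all 4 members on 16 arrays, from 0.96 for *Hoxd9* to 2.50 for *Hoxb9*. The pool was on no array well above background for *Hoxc8*, *Hoxc5* and *Hoxd1*. Their mean log2 ratios of 0.36, 0.25 and 0.33 therefore rest on a Cy5 signal near background. Their cord signal was well above background on 12, 9 and 10 arrays. Before normalization their median Cy3 signals, 51.25, 50.5 and 50 units, lay below the Cy5 signals of 67.75, 77 and 67.5, so no fold difference in RNA is given.

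Further probes of the same gene did not always give the same ratio. The second probe of *Hoxb6*, for another transcript (X56459), had a mean of -0.34 against 1.99. That of *Hoxc10* had 0.64 against 2.04, and that of *Hoxb9* 1.92 against 2.50. The second probe of *Hoxb8*, well above background on 2 arrays in the cord, had 0.17 against 2.18. With the probes of a gene averaged, 11 genes in place of 12 were higher in the cord. The median ratio of paralogues 4 to 9 was then 1.06 in place of 1.54. Those of paralogues 1 to 3 and 10 to 13 stayed at -0.063 and 0.69.

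The scale of the ratio depends on the normalization, since Cy5 was the brighter dye. Without any normalization within arrays the median of all probes counted was -2.35, 0 *Hox* genes were higher and 20 were lower, but the median *Hox* gene still lay 0.87 above that of all probes, against 0.72 with normalization. The class medians were then -1.73 for paralogues 1 to 3, -1.39 for 4 to 9 and -1.51 for 10 to 13, so the classes lay much closer together than with normalization. With the processed signals of the scanner software, 17 genes were higher and 0 lower, beside 20.9% and 25.8% of all probes.

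For paralogues 4 to 9 the median ratio was 1.51 in wild-type and 1.56 in SOD1G93A at 40 days, and 1.57 and 1.44 at 80 days. Paralogues 10 to 13 had 0.76 and 0.45 at 40 days and 0.86 and 0.69 at 80 days, and paralogues 1 to 3 had 0.060 and -0.15 at 40 days and -0.084 and -0.065 at 80 days. The genes of group 10, which marks the lumbar level, and of group 11 are given array by array.

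*Hoxa10* had log2 ratios of 1.58, 1.60, 1.33 and 1.17 in wild-type and 1.52, 1.24, 1.40 and 1.43 in SOD1G93A mice at 40 days. At 80 days it had 1.61, 1.49, 1.23 and 1.59 in wild-type and 1.54, 1.37, 1.02 and 1.24 in SOD1G93A mice. All groups overlapped. *Hoxc10* had 2.23, 2.10, 2.00 and 2.04 in wild-type and 2.01, 2.04, 1.98 and 2.05 in SOD1G93A mice at 40 days, and 2.22, 2.19, 1.69 and 2.04 against 2.31, 1.96, 1.82 and 1.88 at 80 days. Its SD within a group was 0.098 and 0.035 at 40 days and 0.24 and 0.22 at 80 days, in wild-type and SOD1G93A mice.

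*Hoxd10*, the third member of the group, was much less even. It had 0.31, 1.30, 1.04 and 0.37 in wild-type and 0.25, 0.14, 0.43 and 0.97 in SOD1G93A mice at 40 days. At 80 days it had 1.18, 0.81, 1.00 and 0.44 in wild-type and 1.16, 0.59, 0.56 and 0.43 in SOD1G93A mice. Every group held arrays near 1 and arrays below 0.5. *Hoxa11*, of the next group, had -0.96, 0.26, -0.0064 and -1.27 in wild-type and -1.10, -1.52, -0.69 and -0.16 in SOD1G93A mice at 40 days, and 0.56, -0.40, 0.19 and -0.83 against 0.079, -0.36, -0.39 and -0.61 at 80 days. *Hoxd11* had -0.25, 0.19, 0.041 and -0.35 in wild-type and -0.25, -0.38, -0.052 and 0.31 in SOD1G93A mice at 40 days, and 0.44, 0.039, 0.19 and -0.031 against 0.26, -0.061, -0.12 and -0.11 at 80 days. It was well above background in the cord on 5 arrays only, with a median Cy3 signal of 46.5 units, so most of these values are near background. The groups overlapped in all 3 genes.

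**Figure D2:**
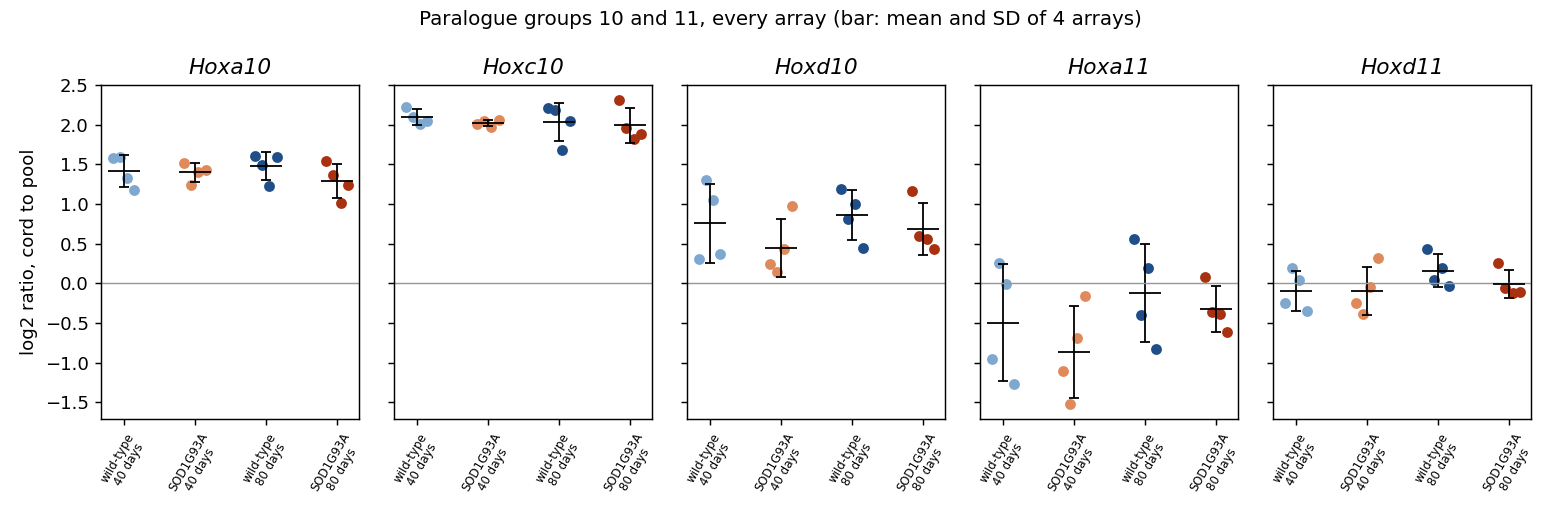
Log2 ratio of cord to pool for Hoxa10, Hoxc10, Hoxd10, Hoxa11 and Hoxd11 on each of the 16 arrays, by group, with points in the order of replicates 1 to 4 and bars for the mean and SD of 4 arrays. Hoxc10 stays between 1.69 and 2.31, whereas Hoxa11 runs from -1.52 to 0.56.

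The spread of *Hoxa11* within groups was an SD of 0.58, larger than that of 99.5% of the 19593 probes well above background in both channels on at least 12 arrays. It was 0.53 for *Hoxb8* (99.4%) and 0.38 for *Hoxd10* (98.5%), where the median probe had 0.11.

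*Hoxd10* and *Hoxa11* were high and low on largely the same arrays, and the ratios of *Hoxd11*, most of them near background in the cord, moved with both. With the mean of each group removed, the correlation over 16 arrays was 0.95 between *Hoxd10* and *Hoxa11* (Spearman's rho 0.95), 0.95 between *Hoxd10* and *Hoxd11* (rho 0.93) and 0.95 between *Hoxa11* and *Hoxd11* (rho 0.96). The permutation p, from 100000 permutations of the arrays within groups and adjusted over the 325 pairs of 26 *Hox* genes, was 0.00325 for each Pearson's r and 0.0065 for each rho (raw p from 1e-05, the smallest they can give, to 3e-05 and from 3e-05 to 6e-05). Without the 2 arrays farthest from the median the coefficients were 0.93 to 0.94. Within single groups they were between 0.91 and 1.00, and with the slide removed 0.96 to 0.98. The 26 genes were the 25 well above background in the cord on at least 12 arrays and *Hoxd11*, which was not and was added as the other member of group 11. Without normalization within arrays the pair of *Hoxd10* and *Hoxa11* had 0.94, but the pairs of *Hoxd11* had 0.53 and 0.52. These pairs were picked out after all 325 had been computed.

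*Hoxc9*, the thoracic gene, went the other way. It had r = -0.84 with *Hoxd10* (rho -0.85, permutation p = 0.00028 and 0.00012, adjusted 0.0228 and 0.00975) and r = -0.82 with *Hoxa11* (rho -0.79, permutation p = 0.00104 and 0.00131, adjusted 0.0676 and 0.0851). Without the 2 farthest arrays these were -0.84 and -0.78. Without the reset of bright local backgrounds the first was -0.44 and the second -0.73. Of the 325 pairs, 4 had an adjusted p under 0.05 by Pearson's r, and they were the 3 above and *Hoxc9* with *Hoxd10*. *Hoxa10* and *Hoxc10* had r = 0.74 with each other (rho 0.74, permutation p = 0.0046 and 0.0047, adjusted 0.175 and 0.17) and 0.59 without the 2 farthest arrays.

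**Figure D3:**
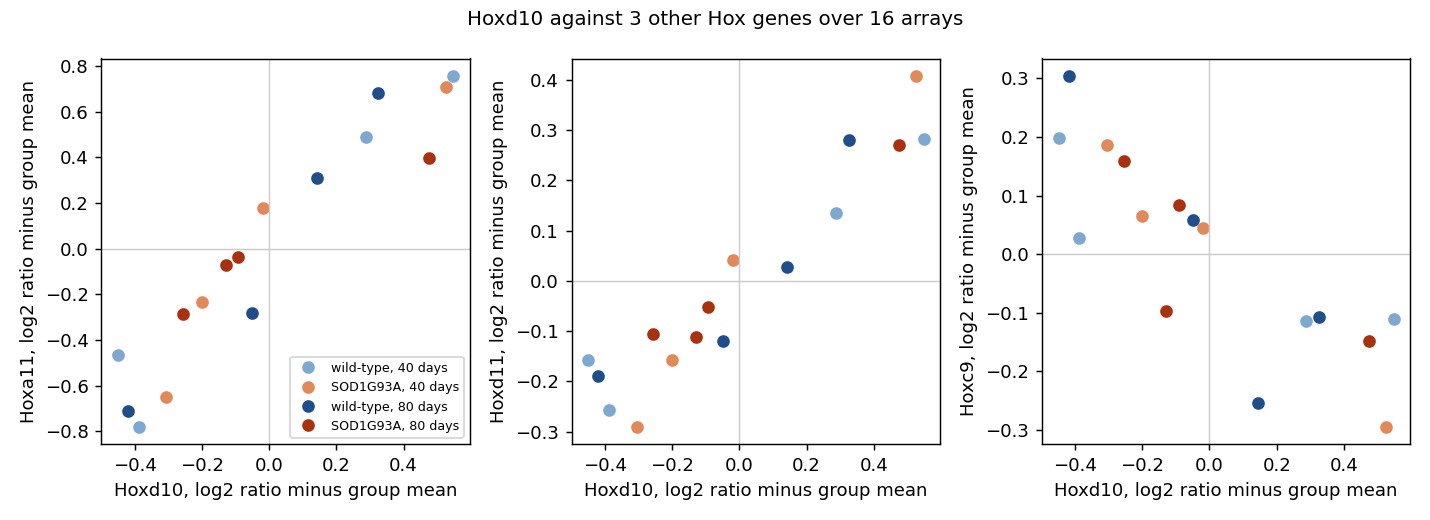
Log2 ratios of Hoxa11, Hoxd11 and Hoxc9 against that of Hoxd10 on 16 arrays, each minus the mean of its group, with colours for the 4 groups. Hoxa11 and Hoxd11 rise with Hoxd10 (r = 0.95 for each) and Hoxc9 falls (r = -0.84, or -0.44 without the reset of bright local backgrounds), and each group spreads along the same line.

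Among the other 20207 probes well above background in the cord on at least 12 arrays, the one most like *Hoxd10* was *Hoxa11*, and the one most like *Hoxa11* was *Hoxd10*. No other probe reached an r of 0.9 with either, and 1 probe, for *Dtnbp1*, lay below -0.9 with *Hoxd10* (-0.91). For *Hoxd10* the next were *Cd24a* (0.88) and the unnamed transcript NAP098046-001 (0.87), and for *Hoxa11* they were *Scn3b* (0.895) and *Stab1* (0.89). These are descriptions over 16 arrays that share slides and a reference.

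Levels of other cell types were set beside these genes. Of 15 marker and pathway lists set against *Hoxa11* over the arrays, none had an adjusted permutation p under 0.05. The largest coefficients were those of peripheral nerve root and dorsal root ganglion markers (r = 0.69, rho 0.64, adjusted permutation p = 0.13 and 0.125) and of endothelial and meningeal markers (r = 0.66, rho 0.63, adjusted permutation p = 0.13 and 0.127), with 0.57 and 0.56 without the 2 farthest arrays. Erythrocyte markers (r = 0.64) and retinoic acid genes (r = 0.62) followed, and oligodendrocyte markers had r = -0.56 and, without the 2 farthest arrays, -0.85. Of the 6 nerve root genes, 4 were well above background on at least 12 arrays, while *Scn10a*, a sodium channel of sensory neurons, was so on 1. The mean log2 ratio of these 4 ran from -0.026 to 2.56 in wild-type and from -0.053 to 1.50 in SOD1G93A mice at 40 days, and from 0.78 to 1.77 and from 0.56 to 1.80 at 80 days. With the nerve root level removed, the 3 *Hox* genes had coefficients of 0.901, 0.8995 and 0.9015 with each other, and with the level of any of the other 14 lists removed they were 0.91 or more.

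SOD1G93A and wild-type mice were then compared at each age, on 8 arrays, with limma's moderated test over all probes that stood well above background in Cy3 on 3 or more of the 4 arrays of either group. Genes were called where the two-sided p was under 0.05 before adjustment, the threshold of the study's methods. At 40 days 1 of 28 *Hox* genes tested was called, higher in SOD1G93A mice, where 4.47% of all 21334 probes were called, 2.44% higher and 2.03% lower. At 80 days it was 3 of 28, 1 higher and 2 lower, where 6.86% of 21600 were, 3.74% higher and 3.12% lower. At 40 days 0 *Hox* genes had groups that did not overlap, beside 2.83% of the probes measured on all 8 arrays, and at 80 days 1 had, beside 4.31%. With Benjamini-Hochberg adjustment over all probes 0 *Hox* genes and 0 probes were called at either age. The smallest adjusted p of a *Hox* gene was 0.998 at 40 and 0.654 at 80 days. The median change of the *Hox* genes was 0.017 at 40 and -0.013 at 80 days, beside 0.0029 and -0.0012 over all probes.

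The gene called at 40 days was *Hoxb5*, with 1.72, 1.57, 1.64 and 1.51 in wild-type and 1.92, 1.70, 1.75 and 1.71 in SOD1G93A mice. The highest wild-type array lay above the lowest SOD1G93A array. The log2 change was 0.16 ± 0.069 (SE, limma, p = 0.0472, adjusted p = 0.998, exact permutation p = 0.0857), and it was above 0 on 4 of 4 slides. The call was lost without wild-type replicate 2, 3 or 4 (0.14, 0.17 and 0.12) and without SOD1G93A replicate 1 or 3 (0.11 and 0.16). It was also lost without the reset of bright backgrounds (0.14), without background subtraction (0.16), with the processed signals (0.17), in the series matrix (0.17), with array weights (0.12) and without normalization within arrays (-0.0030). At 80 days the groups of *Hoxb5* were close, with means of 1.82 ± 0.089 and 1.81 ± 0.085 (SD, n = 4).

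*Hoxa5* gave the smallest p at 80 days. It had -0.043, -0.10, -0.21 and -0.053 in wild-type and -0.28, -0.26, -0.41 and -0.36 in SOD1G93A mice. No SOD1G93A array reached a wild-type one. The log2 change was -0.23 ± 0.064 (SE, limma, p = 0.0049, adjusted p = 0.654, exact permutation p = 0.0286, the smallest that 4 arrays against 4 allow), and it was below 0 on 4 of 4 slides. At 40 days *Hoxa5* had -0.34, -0.30, -0.18 and -0.30 in wild-type and -0.18, -0.24, -0.18 and -0.30 in SOD1G93A mice, a change of 0.052 ± 0.057 (SE, limma, adjusted p = 0.998, exact permutation p = 0.4). *Hoxa5* is also named in the study from these animals, so its values here are no independent evidence. Leaving out any 1 array kept the call at 80 days. Without normalization within arrays the change was -0.098 and was not called.

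*Hoxb7*, a paralogue of the highest gene *Hoxa7*, had 2.03, 1.79, 1.87 and 1.84 in wild-type and 1.85, 1.69, 1.53 and 1.61 in SOD1G93A mice at 80 days. The groups overlapped, with 1 SOD1G93A array above 2 wild-type arrays. The change was -0.21 ± 0.082 (SE, limma, p = 0.0273, adjusted p = 0.708, exact permutation p = 0.0857). At 40 days its change was 0.063 ± 0.082. At 80 days it was no longer called without wild-type replicate 1 (-0.16) or SOD1G93A replicate 3 or 4 (-0.17 and -0.19), nor without normalization within arrays (-0.083). *Hoxb3*, of the anterior class, was higher in SOD1G93A mice, with 0.71, 0.53, 0.77 and 0.35 in wild-type and 0.71, 0.83, 1.00 and 0.76 in SOD1G93A mice. Its change was 0.23 ± 0.10 (SE, limma, p = 0.0432, adjusted p = 0.721, exact permutation p = 0.114), and the call was lost without wild-type replicate 2 or 4 (0.21 and 0.15) and without SOD1G93A replicate 2 or 3 (0.23 and 0.18).

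**Figure D4:**
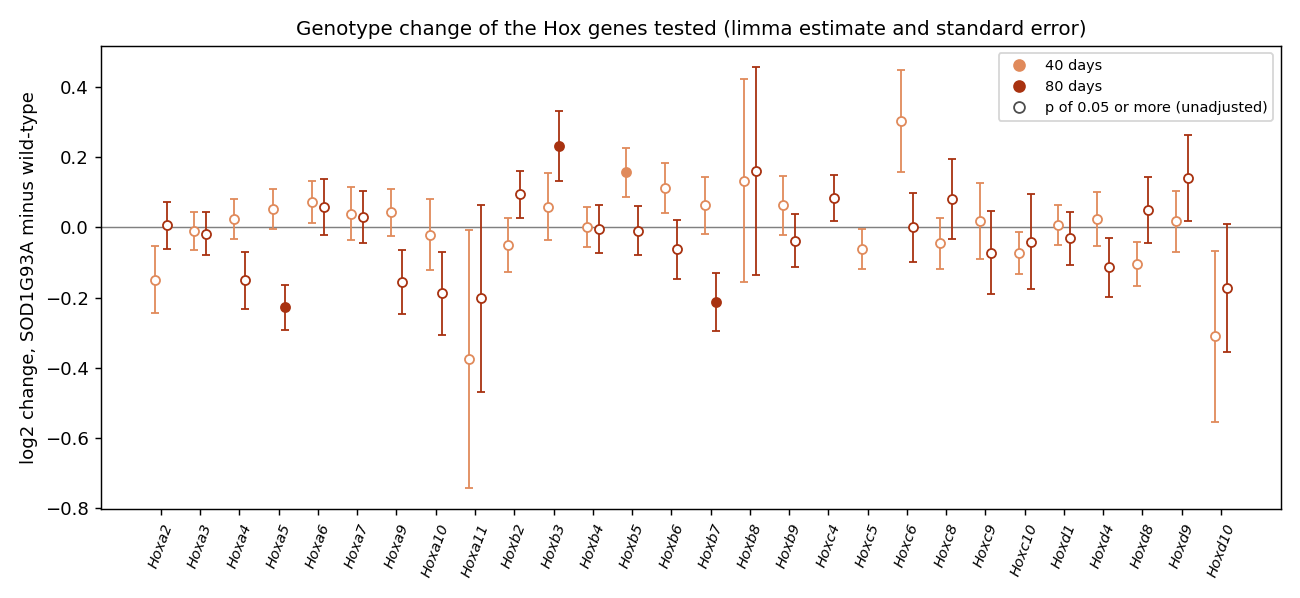
Log2 change, SOD1G93A minus wild-type, of the Hox genes reported that were tested at 40 or 80 days, ordered by cluster and paralogue number, as the limma estimate with its standard error. Filled points have an unadjusted p under 0.05, which are Hoxb5 at 40 days and Hoxa5, Hoxb3 and Hoxb7 at 80 days.

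None of the 4 genes of groups 10 and 11 that were tested was called. *Hoxd11* was too near background in the cord to be tested. *Hoxd10* changed by -0.31 ± 0.24 at 40 and -0.17 ± 0.18 at 80 days, *Hoxa11* by -0.37 ± 0.37 and -0.20 ± 0.27, *Hoxa10* by -0.020 ± 0.10 and -0.19 ± 0.12, and *Hoxc10* by -0.073 ± 0.060 and -0.041 ± 0.14 (SE). The 8 estimates are all below 0, and those of *Hoxd10* and *Hoxa11* carry standard errors near their own size. The untested *Hoxd11* had means of -0.093 in wild-type and -0.092 in SOD1G93A mice at 40 days. At 80 days they were 0.16 and -0.0086. The 2 ages use different arrays, but the 4 genes share the arrays of each age, and *Hoxd10* and *Hoxa11* move together over arrays. With the slide as a block *Hoxa10* was called at 80 days (-0.19). *Hoxc6* had the largest upward estimate without a call, 0.30 ± 0.15 at 40 days (limma, adjusted p = 0.998, exact permutation p = 0.143).

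The genotype change differed between the ages for 2 of 29 *Hox* genes at an unadjusted p under 0.05, both with the lower value at 80 days, where 6.68% of 21949 probes did, 3.11% higher and 3.57% lower, and for 0 of either after adjustment. For *Hoxa5* the change at 80 days minus that at 40 days was -0.28 ± 0.080 (SE, limma, p = 0.00302, adjusted p = 0.543, exact permutation p = 0.00776), below 0 on 4 of 4 slides. For *Hoxb7* it was -0.27 ± 0.12 (SE, limma, p = 0.0348, adjusted p = 0.728, exact permutation p = 0.0478), also below 0 on 4 of 4 slides. These permutations moved genotype labels within each age, so they test for no genotype effect at either age, not for equal effects. The call of *Hoxa5* held without any 1 array. That of *Hoxb7* was lost without wild-type replicate 4 or SOD1G93A replicate 1 at 40 days (-0.22 and -0.21) and without wild-type replicate 1 or SOD1G93A replicate 3 or 4 at 80 days (-0.23, -0.23 and -0.26). Without normalization within arrays the differences of *Hoxa5* and *Hoxb7* were 0.0040 and 0.015.

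**Figure D5:**
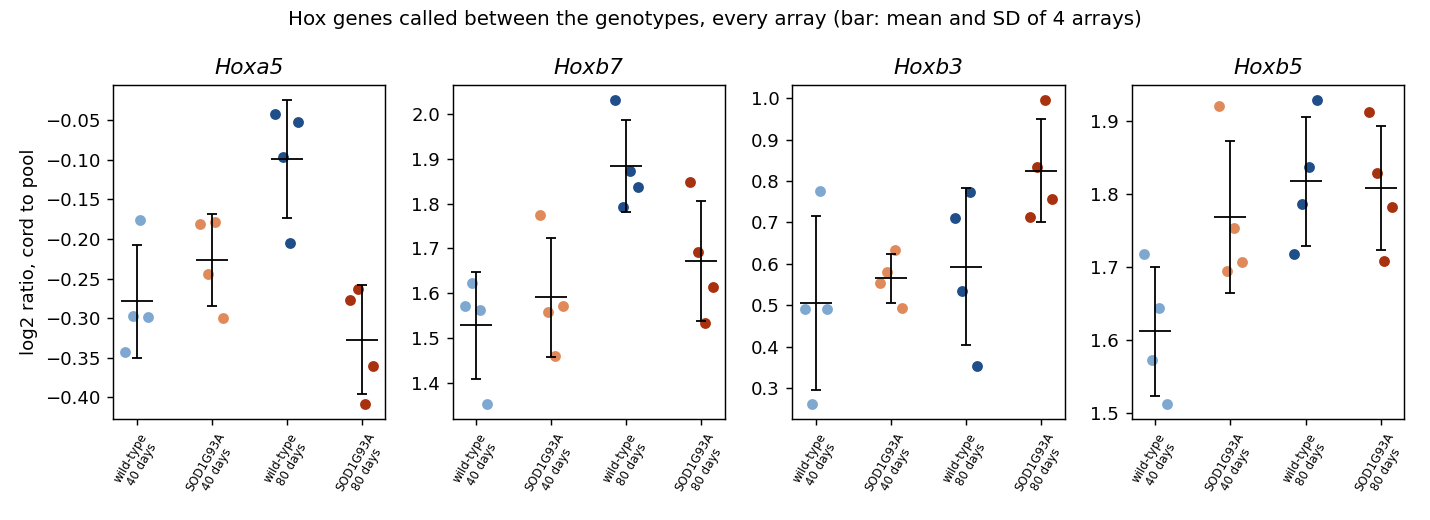
Log2 ratio of cord to pool on each array for the 4 Hox genes called between the genotypes at 40 or 80 days, with bars for the mean and SD of 4 arrays. For Hoxa5 the 4 SOD1G93A arrays of 80 days, -0.26 and below, lie under the 4 wild-type arrays of that age, and for Hoxb7 the wild-type arrays of 80 days stand above those of the other groups except 1 SOD1G93A array.

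Between 40 and 80 days, 6 of 27 *Hox* genes were called in wild-type mice, 5 higher and 1 lower at 80 days, where 15.3% of 21520 probes were called, 6.88% higher and 8.4% lower. *Hoxb7* rose by 0.36 ± 0.084 on the log2 scale (SE, limma, p = 0.000625, adjusted p = 0.0435, exact permutation p = 0.0286), with no overlap between the ages in the values given above. Such a separation was found in 7.77% of the probes measured on 8 arrays and in 2 *Hox* genes, *Hoxb7* and *Hoxa3*, whose change of 0.091 ± 0.053 was not called. It was the 1 *Hox* gene called after adjustment, with 1.63% of all probes. Without normalization within arrays its change was 0.15 and was not called. *Hoxb6* had 1.80, 1.94, 1.90 and 1.74 at 40 days and 2.30, 1.91, 2.18 and 2.06 at 80 days, with 1 array of each age on the other side. *Hoxd8*, of the thoracic level, had 0.85, 0.87, 0.88 and 0.70 at 40 days and 0.31, 0.58, 0.53 and 0.79 at 80 days, overlapping in the same way. *Hoxb6* (0.27 ± 0.079), *Hoxb5* (0.21 ± 0.068), *Hoxa5* (0.18 ± 0.057) and *Hoxb9* (0.18 ± 0.081) rose as well, and *Hoxd8* fell by 0.27 ± 0.081 (limma, unadjusted p from 0.00363 to 0.0426, adjusted p from 0.108 to 0.305). The call of *Hoxb9* was lost without wild-type replicate 2 or 4 of 40 days (0.12 and 0.15) or replicate 1, 3 or 4 of 80 days (0.16, 0.16 and 0.16). All 6 belong to paralogues 4 to 9, which make up 17 of the 27 genes tested. Of the 6, 4 belong to cluster B, which had 8 genes well above background in the cord on at least 12 arrays. The count of 6 in 27 is to be read against the 15.3% of all probes called in this comparison.

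In SOD1G93A mice 3 of 28 were called between the ages, 2 higher and 1 lower at 80 days, where 17.2% of 21506 probes were, 8.77% higher and 8.43% lower, and 0 after adjustment, where 1.18% were. *Hoxb3* rose by 0.26 ± 0.10 (SE, limma, p = 0.0225, adjusted p = 0.216, exact permutation p = 0.0286), with 0.55, 0.58, 0.63 and 0.49 at 40 days against 0.71, 0.83, 1.00 and 0.76 at 80 days and no overlap, as in 12.6% of the probes measured on 8 arrays. *Hoxb2* had -0.10, -0.35, -0.29 and -0.27 at 40 days and 0.037, -0.064, -0.11 and -0.12 at 80 days, and rose by 0.19 ± 0.072 (SE, limma, p = 0.0183, adjusted p = 0.2, exact permutation p = 0.0857). *Hoxd1* was well above background on 4 SOD1G93A arrays of 40 days and 1 of 80 days, so it entered the test only through the group in which it is higher, and its fall is a description. It had 0.45, 0.42, 0.39 and 0.34 at 40 days and 0.23, 0.37, 0.16 and 0.21 at 80 days, a change of -0.15 ± 0.066 (SE). These 3 belong to the anterior class, of which 6 genes were tested. *Hoxd1* among them is a description only, and 0 of the 3 passed after adjustment. The call of *Hoxb3* was lost without SOD1G93A replicate 4 of 40 days (0.24) or 3 of 80 days (0.20), and that of *Hoxb2* without replicate 2 of 40 days (0.16) or 1 of 80 days (0.15). That of *Hoxd1* was lost without replicate 1 or 2 of 40 days (-0.14 and -0.15) or 1, 3 or 4 of 80 days (-0.15, -0.13 and -0.14). *Hoxb7*, called in wild-type mice, changed by 0.082 ± 0.084 here. The second probes of *Hoxb6* (0.36 ± 0.15) and *Hoxb9* (-0.57 ± 0.26) were called in SOD1G93A mice as well (limma, adjusted p = 0.224 and 0.267), where the brightest probes of these genes were not. With Cy3 alone 0 of the 3 were called. The age and genotype comparisons share arrays.

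Some markers of glia moved in the same comparisons, and their part in the *Hox* values was not tested. Of 5 microglia markers 0 were called in any of the 5 comparisons. Of 5 oligodendrocyte markers, all above background on at least 12 arrays, 3 were called lower at 80 days in SOD1G93A mice (median of the 5 -0.39) and 2 in wild-type mice (median -0.19), 1 of them after adjustment in each. Between the genotypes, 2 of the 5 were called higher in SOD1G93A mice at 40 days and 1 at 80 days. The mean log2 ratio of the 5 ran from 5.79 to 6.13 in wild-type and from 6.02 to 6.31 in SOD1G93A mice at 40 days. At 80 days it ran from 5.53 to 5.92 and from 5.70 to 5.86. Of 5 astrocyte markers 3 were called higher in SOD1G93A mice at 40 days and 1 lower at 80 days, and 3 had a lower genotype change at 80 than at 40 days. Between the ages, 2 of the 5 astrocyte markers were called higher at 80 days in wild-type mice, and 1 higher and 2 lower in SOD1G93A mice. The mean of the 5 ran from 3.46 to 3.66 in wild-type and from 3.63 to 3.85 in SOD1G93A mice at 40 days. At 80 days it ran from 3.61 to 3.88 and from 3.32 to 3.82.

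Pbx, Meis and Prep proteins bind DNA together with Hox proteins. All 9 genes of this list were well above background on at least 12 arrays, with log2 ratios from -0.57 for *Pbx2* to 0.67 for *Meis3*. *Pbx4* was called higher in SOD1G93A mice at 40 days (0.22 ± 0.085, limma, adjusted p = 0.998) and *Pknox1*, which encodes Prep1, lower at 80 days (-0.22 ± 0.075, limma, adjusted p = 0.682). *Meis3* and *Pknox2* were called higher at 80 than at 40 days in both genotypes, with changes from 0.16 to 0.23, and *Meis1* lower in SOD1G93A mice (-0.12 ± 0.051). None of the 9 passed after adjustment in any comparison. These counts, those of the glial markers above and those of the lists below stand beside 4.47% of all probes called at 40 days and 6.86% at 80 days. Between the ages 15.3% of all probes were called in wild-type and 17.2% in SOD1G93A mice. The genotype change differed between the ages for 6.68% of all probes.

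*Cdx* genes switch on the posterior *Hox* genes in the embryo, and of these and the ParaHox genes 0 of 6 reached 12 arrays in the cord. Likewise *Evx1* and *Evx2*, beside the clusters, were 0 of 2. Polycomb proteins, which keep *Hox* genes silent outside their domains, had 18 of 22 genes on at least 12 arrays. Of 20 tested, 0 were called at 40 days, and at 80 days 1 was higher in SOD1G93A mice, *Phc2* (0.21 ± 0.071), and 1 lower, *Mtf2* (-0.23 ± 0.063, limma, adjusted p = 0.682 and 0.654). Between the ages 3 were higher and 4 lower at 80 days in wild-type mice, 1 of them (*Phc2*, -0.28 ± 0.065) after adjustment, and 1 higher and 3 lower in SOD1G93A mice. Trithorax genes, which keep *Hox* genes active, had 1 called of 12 at 40 days, *Ash1l* (0.17 ± 0.069), and 0 of 12 at 80 days. Retinoic acid sets *Hox* domains in the early cord. Of its synthesis, breakdown and receptor genes, 0 of 9 were called at 40 days and 1 of 10 at 80 days, where *Cyp26b1*, which breaks retinoic acid down, was lower in SOD1G93A mice (-0.19 ± 0.080, limma, adjusted p = 0.708). Between the ages 2 of 10 were called higher at 80 days in wild-type and 3 of 10 in SOD1G93A mice. The median changes of the list were 0.22 and 0.19, and 0 genes passed after adjustment. The mean log2 ratio of the 9 genes on at least 12 arrays ran from -0.47 to -0.38 in wild-type mice at 40 days. In SOD1G93A mice it ran from -0.50 to -0.42. At 80 days these ranges were -0.31 to -0.16 and -0.32 to -0.21.

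Motor neuron genes, on which Hox proteins act in the embryo, had 0 of 9 called at 40 days and 1 of 9 at 80 days, *Etv4*, a gene of motor neuron pools (-0.31 ± 0.072, limma, adjusted p = 0.654). Between the ages 2 of the 9 were called higher at 80 days in wild-type mice, and 2 higher and 1 lower in SOD1G93A mice, with 0 after adjustment in each. *Foxp1*, the partner of Hox proteins in limb motor neurons, was well above background on 16 arrays with a ratio of -1.81. It was among those called higher in both genotypes, at 0.15 ± 0.068 in wild-type and 0.24 ± 0.068 in SOD1G93A mice.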

How the data were processed

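Lumbar cord RNA of 16 mice was hybridised against a common pool on 2-colour whole mouse genome arrays. Per the file headers, the authors used Agilent Feature Extraction 9.5.3.1 to read the spots. The deposited intensity values are linear median signals and local backgrounds, and the processed signals were already corrected and dye-normalized. The deposited log2 values of the series matrix follow Cy3 alone and were normalized by the authors with limma.

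With limma 3.58.1 in R 4.3.3 (with the data.table package, version 1.17.8), local backgrounds more than 20 units above their own spot were set to the median background of the array, because without this step the slope of an array's ratios on the mean of the other arrays of its age fell to as little as 0.79, against 0.95 with it. Signals were corrected by normexp (offset 50). Ratios were normalized by loess in each array, and mean intensities were then given equal quantiles (Aquantile). Control spots and outlier spots (107 to 301 an array) were dropped, and repeated spots of a probe were averaged. In Cy3 0 spots were saturated. The number of arrays limits the precision.

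Tests used lmFit and eBayes on probes well above background in Cy3 on 3 or more arrays of either group, with 2 or more values in each, and 8 arrays for genotypes and 16 otherwise. The tests were checked on simulated data. Single genes had a two-sided exact permutation test, with genotype labels moved within each age for the difference between the ages. There were 5 comparisons, with p adjusted over all probes of a comparison. Samples were grouped by genotype and age in the labels, which call the arrays biological replicates. Replicate numbers coincide with slides, and same-numbered arrays did not deviate together throughout. Other settings and each array left out are given in the closing section. Some items are not reported here and are left out of the plots, though counts over the genes include them. The other *Hox* genes could be named, with every array for groups 10 and 11, for the genes called between the genotypes and for up to 4 genes called between the ages, and the lowest, median and highest array for the 4 highest and 4 lowest ratios. Members and lists were chosen with earlier results of these data known. Plots were made in Python 3.11.15 (matplotlib 3.10.9).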

Additional observations from a re-analysis of the deposited data

Results flagged for a closer look

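The genotype change of *Hoxa5* differed between the ages, by -0.28 on the log2 scale for 80 minus 40 days, and that of *Hoxb7* by -0.27, both by limma's interaction test at an unadjusted p under 0.05 and neither after adjustment. In 72 groups of 4 arrays looked at, 2 held an array far from the other 3, where chance gives about 1 in 20 groups. *Hoxb9* had 2.40 in wild-type replicate 2 at 80 days, where the nearest array had 2.63. *Hoxd11* had 0.26 in SOD1G93A replicate 1 at 80 days, where the nearest had -0.061.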

How the results depend on the processing

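The 12 *Hox* genes higher and 0 lower in the cord became 0 and 20 without normalization within arrays, where *Hoxa7*, *Hoxb9*, *Hoxc9*, *Hoxb8* and *Hoxa10* turned to -0.68, -0.60, -0.86, -0.36 and -1.51, and were 12 and 0 without each array in turn. At 40 days the 1 call became 0 without the reset of bright backgrounds, without background subtraction, in the series matrix and with adjusted p, and 2 without a filter, with the mean of the probes and with 16 arrays for the spread. At 80 days the 3 calls became 1 with Cy3 alone, 1 in the series matrix and 0 with adjusted p. The 2 differences between the ages became 1 without the reset and in the series matrix, 4 without normalization within arrays and with array weights, and 0 with adjusted p. Of the age calls, the 6 in wild-type mice became 2 without normalization within arrays, 11 in the series matrix, where 44.2% of all probes were called, and 1 with adjusted p. The 3 in SOD1G93A mice became 0 with Cy3 alone, 11 in the series matrix, where 47.3% were, and 0 with adjusted p. The series matrix has other quantiles at each age. Without normalization within arrays *Hoxb5* at 40 days turned to -0.0030 and the differences of *Hoxa5* and *Hoxb7* between the ages to 0.0040 and 0.015. The cause was not tested.

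Without each array in turn, *Hox* calls were 0 to 2 at 40 days, 1 to 5 at 80 days, 1 to 3 for the difference between the ages, 5 to 6 for age in wild-type and 1 to 5 in SOD1G93A mice. At 40 days 0 were called without wild-type replicate 2 or SOD1G93A replicate 1, and 2 without wild-type or SOD1G93A replicate 4. The difference between the ages had 1 call without wild-type replicate 4 or SOD1G93A replicate 1 of 40 days, or wild-type replicate 1 or SOD1G93A replicate 3 or 4 of 80 days. At 80 days 5 were called without wild-type replicate 3 and 1 without SOD1G93A replicate 3. The calls for age in SOD1G93A mice were 1 without SOD1G93A replicate 2 of 40 days or 3 of 80 days and 5 without wild-type replicate 3 of 80 days.

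With the replicate block (the slide), calls were 1 at 40 days, 4 at 80 days, 2 for the difference and 6 and 3 for age, and *Hoxa10* at 80 days was the one call that the block added there. Same-numbered arrays correlated from -0.18 to 0.21, so the numbers are not known to pair animals.

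The correlations of *Hoxd10* with *Hoxa11* were 0.85 to 0.96 over 7 other settings, chosen after the data were seen. Those of *Hoxd11* with both were 0.53 and 0.52 without normalization within arrays and 0.86 or more otherwise, and that of *Hoxc9* with *Hoxd10* was -0.44 without the reset of bright backgrounds. Genes near background are limited by signal, with median Cy3 signals of 50 to 57 over backgrounds of 35 to 38.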
